A study of Mus musculus with 6 samples.

Results

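The TGF-β ligands, their receptors and the inhibitory SMADs were followed in RNA sequencing of mouse mesenteric cells labelled as peritoneal endothelial cells (ECs). The set was a fixed list of 10 genes, namely Tgfb1, Tgfb2, Tgfb3, Tgfbr1, Tgfbr2, Tgfbr3, Eng, Acvrl1, Smad6 and Smad7. Each was matched to the deposited table by its symbol, and each had a single row among 22183 genes. All 10 passed the filter on low counts that left 14005 genes for testing.

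TGF-β ligands are secreted in a latent form and, once released, bind the type II receptor TGFBR2, which then phosphorylates a type I receptor. Most cells use the type I receptor ALK5 (Tgfbr1), which signals through SMAD2 and SMAD3. ECs also carry ALK1 (Acvrl1), which signals through SMAD1 and SMAD5 and mainly responds to BMP9 and BMP10. Endoglin (Eng) and betaglycan (Tgfbr3) are co-receptors, and SMAD6 and SMAD7 switch the pathway off again. In the peritoneum TGF-β is best known for its part in fibrosis, and in vessels the ALK1-endoglin branch is known from hereditary haemorrhagic telangiectasia.

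Libraries came from 3 saline mice and 3 PD mice, all labelled wild type. The study's methods describe young adult male C57BL/6J mice given daily intraperitoneal injections for 6 weeks, either of saline (sham) or of a high-glucose peritoneal dialysis (PD) fluid. Cells were taken from the mesentery, which was digested with collagenase, with 1 library per mouse. The methods describe flow sorting of CD31+ CD45- cells with both antibodies in the same fluorophore, whereas the sample labels describe magnetic selection on CD31.

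The libraries held between 21973426 and 26374292 counted reads, so that 1 CPM (a scaled count relative to library size) stood for 21.7 to 27.2 reads after TMM scaling. Defining markers of other cells were present in all of them, and those of leukocytes were far higher than the endothelial ones, against the label, so that the libraries are treated here as mixed cells selected on CD31. In the deposited FPKM values, which are per length, the leukocyte gene Ptprc (CD45) ran from 601 to 658 in saline mice and from 388 to 401 in PD mice. Cdh5 (VE-cadherin) ran from 4.08 to 5.49 and from 8.07 to 8.78, and Pecam1 (CD31), which leukocytes and platelets also carry, from 142 to 150 and from 155 to 164. None of the 11 marker lists had a gene at 0 in all 6 libraries. The summed level of 12 endothelial markers was 1602 to 1696 CPM in saline mice and 2822 to 2879 CPM in PD mice. For 6 pan-leukocyte markers it was 9017 to 9509 and 7205 to 7318 CPM, and for 9 macrophage markers 2643 to 2789 and 10971 to 11890 CPM. For 5 B cell and 6 T cell markers it was 5012 to 5303 and 2170 to 2249 CPM in saline mice against 2358 to 2390 and 1648 to 1846 CPM in PD mice. For 6 lymphatic endothelial markers it was 117 to 124 and 670.5 to 706 CPM, for 7 mesothelial markers 31.8 to 37.6 and 218 to 250.02 CPM, and for 8 fibroblast markers 95.0 to 103 and 853 to 889 CPM. For 7 pericyte and smooth muscle markers it was 262 to 280.0 and 401 to 444 CPM, for 6 platelet markers 36.5 to 38.1 and 98.2 to 104 CPM, and for 8 pancreatic acinar markers 2.23 to 5.44 and 9027 to 9745 CPM. Of the platelet markers only 4 could be tested, of which 1 was called higher and 3 were not called. The part of these cells in the values below was not tested. In bulk RNA, more cells of a type and more RNA per cell cannot be told apart.

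In PD mice 8 of these 10 transcripts rose (edgeR's quasi-likelihood test, threshold 0.05 after adjustment), and 0 were lower. The count of lower genes was also 0 at an unadjusted p under 0.05 and with DESeq2 and limma-voom. Among all tested genes, 31.1% were called higher and 27.8% lower. The genes that rose were all 3 ligands, the receptor Tgfbr2, both co-receptors, Acvrl1 and Smad6. Tgfbr1 and Smad7 were not called. These directions hold for TMM scaling, and the values of Tgfb1, Tgfbr1, Tgfbr2 and Tgfbr3 turned negative when libraries were scaled to endothelial markers. In 8 of the 10 genes, all PD mice lay above all saline mice in CPM. This was so for 34.0% of tested genes, while 31.6% had all PD mice below all saline mice. The 8 genes include Tgfbr1 and leave out Tgfb1 and Smad7, whose groups overlapped. The median log2 fold change of the 10 genes was 0.95, beside 0.02 over all tested genes.

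**Figure D1:**
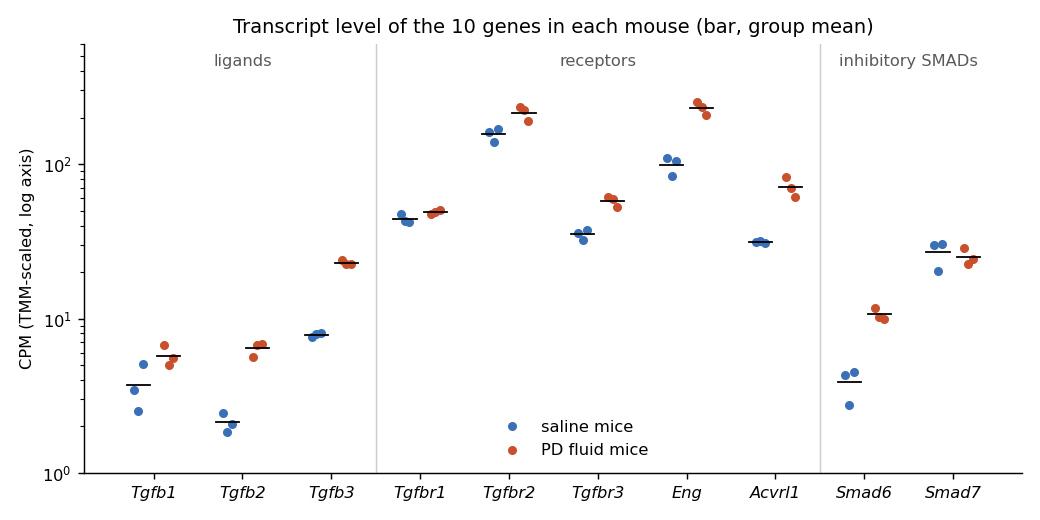
Transcript level of each of the 10 genes in each mouse, as TMM-scaled CPM on a log axis, with saline mice in blue, PD mice in red and a bar at each group mean (n = 3 mice each). Eng, Acvrl1, Tgfb2, Tgfb3 and Smad6 show the widest gaps between groups, and the groups overlap for Tgfb1 and Smad7.

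Upstream sequence was held for 6 of the 10 genes in the RefSeq table of promoter windows (GRCm38.p6). The 250 bases before the annotated start are shown for 1 gene of each kind that rose, namely a receptor, an inhibitory SMAD and a ligand, and for Tgfbr1, which was not called. Each line runs 5′ to 3′ on the strand of the gene. Capitals mark CAGACA, the core of the CAGA box bound by SMAD3 and SMAD4, and GGCGCC, a GC-rich element bound by SMAD1 and SMAD5, each searched on both strands. The 2 motifs do not overlap in these windows.
Eng, chr2:32646345-32646594, plus strand: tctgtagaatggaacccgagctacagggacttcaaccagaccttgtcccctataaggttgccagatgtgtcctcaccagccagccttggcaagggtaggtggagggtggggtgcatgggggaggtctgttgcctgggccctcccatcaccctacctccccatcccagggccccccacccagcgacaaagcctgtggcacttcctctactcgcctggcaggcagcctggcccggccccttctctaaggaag
Smad6, chr9:64022060-64022309, minus strand: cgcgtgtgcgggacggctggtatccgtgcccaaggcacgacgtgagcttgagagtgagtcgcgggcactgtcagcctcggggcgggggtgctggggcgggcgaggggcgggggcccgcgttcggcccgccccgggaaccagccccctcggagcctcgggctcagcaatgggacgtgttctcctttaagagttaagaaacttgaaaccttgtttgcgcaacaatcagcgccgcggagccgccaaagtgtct
Tgfb2, chr1:186705990-186706239, minus strand: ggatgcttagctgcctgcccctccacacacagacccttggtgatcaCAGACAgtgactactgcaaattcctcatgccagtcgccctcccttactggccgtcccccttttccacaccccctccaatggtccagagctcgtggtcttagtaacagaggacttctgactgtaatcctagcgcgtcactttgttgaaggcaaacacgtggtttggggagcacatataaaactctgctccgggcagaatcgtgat
Tgfbr1, chr4:47352972-47353221, plus strand: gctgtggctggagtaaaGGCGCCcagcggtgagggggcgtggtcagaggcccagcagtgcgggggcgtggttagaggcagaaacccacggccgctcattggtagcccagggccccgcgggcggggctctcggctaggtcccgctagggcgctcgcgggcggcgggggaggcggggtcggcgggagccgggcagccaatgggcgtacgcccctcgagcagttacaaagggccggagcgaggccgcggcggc
CAGACA lay at position -204 from the start of Tgfb2, and GGCGCC at -233 from the first of the 2 annotated starts of Tgfbr1. The second start of Tgfbr1 had CAGACA at -203. Neither motif was found in the windows of Eng, Smad6, Tgfb1 and Tgfbr2. Of all 32851 windows of this length, 17.1% held CAGACA and 9.59% held GGCGCC, and a match of so few letters is a description and not a binding site.

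Of the ligands, Tgfb3 (ENSMUSG00000021253, chr12:86056745-86079041 of GRCm38, minus strand) was the most abundant per length. Its level was 7.54, 7.93 and 8.12 CPM in the 3 saline mice and 23.8, 22.6 and 22.6 CPM in the 3 PD mice. The groups were far apart and each was tight, at 7.86 ± 0.296 and 23.0 ± 0.683 CPM (SD, n = 3 mice each). On the log2 scale the change was 1.55 (standard error, SE, 0.11, edgeR adjusted p = 5.91e-07), or 2.92-fold.

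Tgfb2 (ENSMUSG00000039239, chr1:186622792-186705989, minus strand), the isoform that depends most on betaglycan to reach its receptor, was scarce. It had between 40 and 63 reads per saline mouse and between 151 and 160 reads per PD mouse. This was 2.46, 1.84 and 2.07 CPM against 5.67, 6.71 and 6.84 CPM, with all PD mice above all saline mice. Tgfb2 rose by 1.58 on the log2 scale (SE 0.19, edgeR adjusted p = 5.27e-05), or 3.00-fold.

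Tgfb1 (ENSMUSG00000002603, chr7:25687002-25705077, plus strand), the isoform made by most leukocytes and platelets, was also scarce, with 55 to 123 reads in saline mice and 119 to 183 in PD mice. The 3 saline mice were at 3.44, 2.54 and 5.09 CPM and the 3 PD mice at 6.73, 4.99 and 5.53 CPM, so that saline mouse 3 lay above PD mouse 2. The log2 fold change of 0.64 (standard error 0.25) had an edgeR adjusted p of 0.0442. The call was lost when saline mouse 1 or 2 or any PD mouse was left out, with log2 fold changes of 0.59 and 0.44 without the saline mice and 0.51, 0.74 and 0.67 without PD mice 1, 2 and 3 (adjusted p from 0.0535 to 0.160 in the same edgeR test). Without saline mouse 3 it was 0.94 (edgeR adjusted p = 0.00706).

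Among the 3 ligands, Tgfb3 made up 50.5% ± 5.16 of the summed FPKM in saline mice and 61.6% ± 0.224 in PD mice (SD, n = 3 mice each). Tgfb1 made up 38.4% ± 5.70 and 25.3% ± 2.45, and Tgfb2 11.0% ± 1.33 and 13.2% ± 2.46. The shares of Tgfb1 and Tgfb3 did not overlap between the groups, whereas those of Tgfb2 did. Tgfb2 and Tgfb3 rose in the libraries in which the mesothelial and fibroblast markers were higher. Summed macrophage, platelet, endothelial, lymphatic endothelial, pericyte and smooth muscle, and acinar markers were higher in the same libraries. Pan-leukocyte, B cell and T cell markers were lower there. The part of any of these cells in the ligand levels was not tested.

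Of the receptors, Eng (ENSMUSG00000026814, chr2:32646595-32682669, plus strand) had the largest fitted change, close to that of Acvrl1. It was at 109.5, 84.3 and 104 CPM in saline mice and at 253, 233 and 208 CPM in PD mice. The lowest PD mouse lay well above the highest saline mouse. Eng thus rose by 1.22 on the log2 scale (SE 0.10, edgeR adjusted p = 2.81e-06), or 2.33-fold. In the annotation an exon of Fpgs on the other strand, a gene of the deposited table, overlaps Eng by 61 bases. Predicted genes outside the table overlap exons of Tgfb2 (124 bases), Tgfb3 (163 and 257 bases) and Acvrl1 (127 bases) on the other strand and of Tgfbr3 (297 bases) on the same strand. Whether reads were counted by strand is not given in the sources used here.

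Acvrl1 (ENSMUSG00000000530, chr15:101128522-101145336, plus strand), the type I receptor that works with endoglin, moved by nearly the same amount. It was at 31.3, 31.8 and 31.1 CPM in saline mice and at 82.6, 70.3 and 61.6 CPM in PD mice. The saline mice were almost identical, and the PD mice were spread over a wider range without meeting them. Acvrl1 rose by 1.19 on the log2 scale (SE 0.10, edgeR adjusted p = 3.89e-06).

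The co-receptor Tgfbr3 (ENSMUSG00000029287, chr5:107106570-107289629, minus strand) was at 35.8, 32.3 and 37.4 CPM in saline mice and at 61.5, 59.3 and 52.5 CPM in PD mice. Tgfbr3 rose by 0.72 on the log2 scale (SE 0.09, edgeR adjusted p = 6.36e-05). The type II receptor Tgfbr2 (ENSMUSG00000032440, chr9:116084293-116175360, minus strand) was at 161, 140.1 and 169 CPM in saline mice and at 233, 223 and 192 CPM in PD mice. The groups did not overlap, and the log2 fold change of 0.46 was the smallest of those called (SE 0.09, edgeR adjusted p = 0.00126).

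Tgfbr1 (ENSMUSG00000007613, chr4:47353222-47414931, plus strand), the type I receptor ALK5, was at 47.6, 42.7 and 42.2 CPM in saline mice and at 47.6, 49.1 and 50.6 CPM in PD mice. Saline mouse 1 and PD mouse 1 were almost level, so that the groups were only just apart. In FPKM they overlapped, with saline mouse 1 at 9.796 and the highest PD mouse at 9.793. Its change of 0.15 on the log2 scale did not pass the test (SE 0.08, edgeR adjusted p = 0.119).

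Of the inhibitory SMADs, Smad6 rose and Smad7 was not called. Smad6 (ENSMUSG00000036867, chr9:63953076-64022059, minus strand), which mainly restrains BMP and ALK1 signals, was at 4.30, 2.77 and 4.51 CPM in saline mice and at 11.7, 10.2 and 9.97 CPM in PD mice. All PD mice were above all saline mice by a wide margin, with 60 to 110 reads per saline mouse and 220 to 319 per PD mouse. Smad6 rose by 1.46 on the log2 scale (SE 0.19, edgeR adjusted p = 8.26e-05), or 2.74-fold. Smad7 (ENSMUSG00000025880, chr18:75367529-75395935, plus strand), which targets the TGF-β type I receptor for degradation, was at 30.0, 20.4 and 30.6 CPM in saline mice and at 28.6, 22.4 and 24.3 CPM in PD mice. The groups overlapped, and the log2 fold change was -0.11 (SE 0.15, edgeR adjusted p = 0.572). Without saline mouse 2, the lowest of its group, it was -0.27 (edgeR adjusted p = 0.0671).

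Because scaling cancels in a ratio of reads within 1 library, 4 such ratios were compared between the groups. The ratio of Acvrl1 to Tgfbr1 reads was 0.658, 0.746 and 0.736 in saline mice and 1.73, 1.43 and 1.22 in PD mice. All PD mice lay above all saline mice, a log2 difference of 1.02, or 0.97 in FPKM. Reads are not corrected for length, and in FPKM Acvrl1 was above Tgfbr1 in every mouse of both groups. The ratio of Smad6 to Smad7 reads was 0.143, 0.136 and 0.148 in saline mice and 0.411, 0.455 and 0.410 in PD mice, a log2 difference of 1.58. Relative to Pecam1, the log2 difference was 1.09 for Eng and 1.05 for Acvrl1. The groups did not overlap in any of the 4 ratios, and each had p = 0.1 by a two-sided exact permutation (0.1 after Benjamini-Hochberg adjustment over 4 ratios), the smallest p that 3 mice against 3 allow. The choice of the reference gene mattered. Leukocytes and platelets also carry Pecam1, and their part in its level was not tested. Against Cdh5, chosen after the data were seen, the log2 difference was 0.40 for Eng (exact permutation p = 0.1) and 0.35 for Acvrl1 (exact permutation p = 0.2). The Acvrl1 to Cdh5 ratio was 1.70, 1.93 and 1.42 in saline mice and 2.43, 2.19 and 1.82 in PD mice, so that PD mouse 3 fell among the saline mice.

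**Figure D2:**
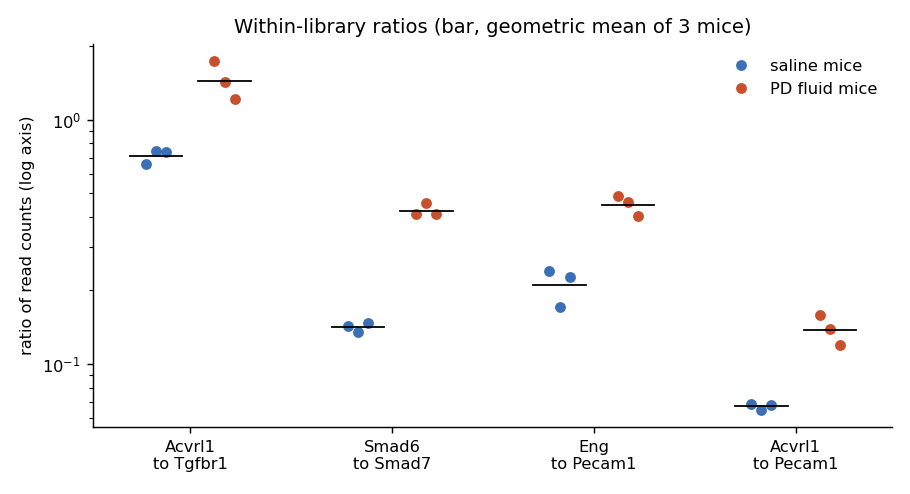
Ratio of read counts of gene pairs within each library, on a log axis, with saline mice in blue, PD mice in red and a bar at the geometric mean (n = 3 mice each). In all 4 ratios the PD mice lie above the saline mice, and the height of a ratio also depends on transcript length.

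Levels were set against each other per length, in the deposited FPKM. In saline mice Eng (29.8 ± 4.13 FPKM) and Tgfbr2 (29.2 ± 2.87) headed the order (SD, n = 3 mice), and their ranges overlapped. Acvrl1 followed at 14.1 ± 0.258 FPKM, then Tgfbr1 at 8.88 ± 0.80, Smad7 at 8.22 ± 1.76 and Tgfbr3 at 5.92 ± 0.455, of which each neighbouring pair from Tgfbr1 to Tgfbr3 overlapped. Tgfb3 (2.32 ± 0.0910), Tgfb1 (1.80 ± 0.50) and Smad6 (1.30 ± 0.329) came next and overlapped in the same way, and Tgfb2 was lowest at 0.507 ± 0.0539 FPKM. In PD mice Eng stood alone at the top at 70.3 ± 8.76 FPKM (SD, n = 3 mice). Tgfbr2 (42.5 ± 5.92) and Acvrl1 (30.5 ± 5.17) followed and overlapped narrowly. Tgfbr1 (9.70 ± 0.131), Tgfbr3 (9.54 ± 1.02), Smad7 (7.65 ± 1.08) and Tgfb3 (6.82 ± 0.374) formed a chain in which each overlapped the next. Smad6 (3.60 ± 0.420) and Tgfb1 (2.81 ± 0.434) overlapped, and Tgfb2 stayed lowest at 1.45 ± 0.199 FPKM.

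Endothelial markers rose too, with 11 of the 12 called higher and a median log2 fold change of 0.96. The exception was Pecam1, at 0.13 (edgeR adjusted p = 0.0704). The libraries were therefore also scaled to these 12 markers, which hold none of the 10 genes. This moved the median log2 fold change of all tested genes to -0.91, and 8.73% of genes were then called higher and 71.0% lower. Of the 10 genes, 5 stayed higher, namely Tgfb2 at 0.66, Tgfb3 at 0.62, Smad6 at 0.53, Eng at 0.29 and Acvrl1 at 0.25 (edgeR adjusted p from 0.000258 to 0.0350). By contrast 4 were lower, namely Smad7 at -1.04, Tgfbr1 at -0.78, Tgfbr2 at -0.47 and Tgfbr3 at -0.21, while Tgfb1 at -0.29 was not called (edgeR adjusted p = 0.273). The 12 markers themselves ran from -0.80 for Pecam1 to 0.72 for Tie1 on this scale, a range that held the value of each of the 10 genes except Smad7.

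**Figure D3:**
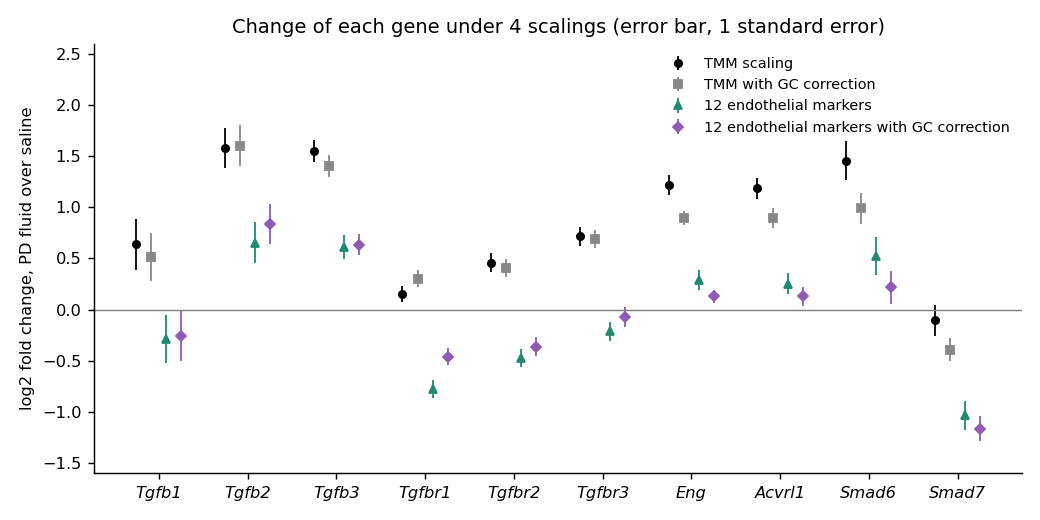
Log2 fold change of the 10 genes in PD mice over saline mice with 1 standard error, under TMM scaling, TMM with a GC correction, scaling to 12 endothelial markers, and the latter with a GC correction. Tgfb2, Tgfb3, Eng, Acvrl1 and Smad6 lie above 0 and Smad7 below 0 under all 4, and Tgfb1, Tgfbr1, Tgfbr2 and Tgfbr3 change sign between the 2 kinds of scaling.

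Fold changes over all genes also followed the GC content of the transcript. Genes were split by GC content into 5 bins with about the same number of genes each. The median log2 fold change ran from -0.19 in the lowest bin to 0.35 in the highest. Within groups, saline mouse 2 (median deviation -0.13 on the log2 scale) and PD mouse 3 (-0.05) were the lowest of their groups in the highest bin. Smad6 (60.8% GC), Eng (57.4%), Smad7 (56.9%) and Acvrl1 (56.6%) belong to the highest of these bins and Tgfbr1 (41.0%) to the lowest. A correction for this trend, chosen after the data were seen, left 28.1% of all tested genes called higher and 30.6% lower. It lowered the log2 fold change to 0.90 for Eng, 0.90 for Acvrl1 and 0.99 for Smad6, each still called (edgeR adjusted p of 0.000134 or less). With it Tgfbr1 was called higher at 0.30 (edgeR adjusted p = 0.00580) and Smad7 lower at -0.40 (edgeR adjusted p = 0.00877), and Tgfb1 lost its call (edgeR adjusted p = 0.0739). Under both the endothelial scaling and the GC correction, 9.70% of all tested genes were called higher and 69.7% lower. Of the 10 genes, 2 stayed higher, Tgfb2 at 0.84 and Tgfb3 at 0.64, and 3 lower, Smad7 at -1.17, Tgfbr1 at -0.46 and Tgfbr2 at -0.36. Eng was then at 0.13 (edgeR adjusted p = 0.0996), Acvrl1 at 0.13 (edgeR adjusted p = 0.219) and Smad6 at 0.22 (edgeR adjusted p = 0.225). GC content does not cancel in the ratio of Acvrl1 to Tgfbr1, whose GC-corrected log2 fold changes of 0.90 and 0.30 lay closer together than the uncorrected 1.19 and 0.15.

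**Figure D4:**
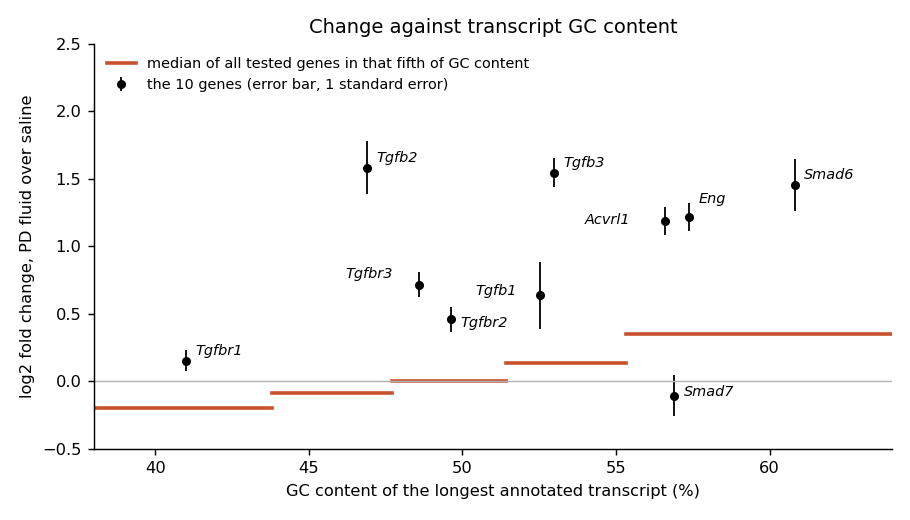
Log2 fold change of the 10 genes (black, with 1 standard error) against the GC content of the longest annotated transcript, with the median of all tested genes in each of 5 bins of GC content as red lines, cut at the edges of the plot. All genes but Smad7 lie above the median of their bin.

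The rest of the pathway was described with 7 lists of 61 other genes, of which 54 were tested. Of these, 42 were called higher and 2 lower, with a median log2 fold change of 1.00. Among all tested genes 31.1% were called higher and 27.8% lower. Scaled to the endothelial markers, 17 were higher and 17 lower, beside 8.73% and 71.0% of all tested genes. These shares are the background for the counts of each list below. With the GC correction, 40 of the 54 were higher and 1 lower, beside 28.1% and 30.6% of all tested genes. Fold changes below are without that correction unless it is named. The lists were chosen with earlier results of these data known.

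Among transcripts of proteins that store and activate the ligands, 9 of 10 tested genes were called higher. The latent TGF-β binding proteins, which tether the ligand to matrix, had log2 fold changes of 1.57 for Ltbp1, 2.62 for Ltbp3 and 1.99 for Ltbp4, the largest of the list being that of Ltbp3 from 10 to 14 reads per saline mouse. With the GC correction they were at 1.44, 2.25 and 1.48, each still called (edgeR adjusted p of 4.41e-05 or less). Ltbp4 was at 56.1, 26.9 and 64.7 CPM in saline mice and at 271, 174 and 142 CPM in PD mice. Lrrc32 (GARP), which holds latent TGF-β on the cell surface, rose by 1.76, and Thbs1 (thrombospondin 1), an activator, by 2.49 with a standard error of 0.11. The integrin subunit Itgav rose by 0.36, a call lost without saline mouse 1 or 2 or PD mouse 1 or 2 (edgeR adjusted p from 0.0697 to 0.144). Itgb8, its partner in activation, was not called at 0.03 (SE 0.39, edgeR adjusted p = 0.950), and Itgb6 had at most 5 reads in any library and was not tested. Ltbp1, Ltbp3, Ltbp4, Lrrc32, Thbs1 and Emilin1 were also called higher under the endothelial scaling, while Itgav (-0.57) and Nrros (-0.49, from 0.44) were called lower.

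Among the BMP and activin ligands all 6 tested genes were higher, from 0.77 for Bmp4 to 2.81 for the activin subunit Inhbb (edgeR adjusted p = 8.27e-06). Inhba rested on 1, 9 and 9 reads in saline mice (edgeR adjusted p = 0.0377). Its call was lost without saline mouse 1 or 3 or PD mouse 2 or 3 (edgeR adjusted p from 0.0531 to 0.162). Inhbb was at 1.02, 0.692 and 0.828 CPM in saline mice and 7.14, 6.50 and 4.35 CPM in PD mice, and it was the gene of this list still called higher under the endothelial scaling. The ligands of ALK1 were not measurable. Bmp10 had 0 reads in all 6 libraries, which leaves room for an expected count of up to about 3 reads in each. Gdf2 (BMP9) had at most 2 reads in any.

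Of 7 tested BMP and activin receptors, 5 were higher and the other 2 were not called. Acvr2b rose most, by 2.03 on the log2 scale (standard error 0.52), from a level of 0.621 CPM or less in saline mice. With 1 library left out its change ran from 1.61 (without saline mouse 2) to 2.66 (without saline mouse 3). The BMP type II receptor Bmpr2, which pairs with ALK1, rose by 0.45 (edgeR adjusted p = 0.0200), and Bmpr1a by 1.12. The call of Bmpr2 was lost without saline mouse 3, PD mouse 1 or PD mouse 3 (edgeR adjusted p from 0.0519 to 0.0681). Under the endothelial scaling 3 of the 7 were called lower, beside 71.0% of all tested genes, and the other 4 were not called.

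Of 5 tested signalling SMADs, 2 were called higher and 1 lower, beside 31.1% and 27.8% of all tested genes. Smad1 rose by 0.71 and Smad3 by 0.81, Smad2 fell by 0.31 on the log2 scale (edgeR adjusted p = 0.00260), and Smad4 and Smad5 were not called, at -0.06 and -0.09. Smad2 was at 88.5, 92.6 and 86.4 CPM in saline mice and 69.9, 71.7 and 74.7 CPM in PD mice, with no overlap. Under the endothelial scaling 4 of the 5 were called lower, beside 71.0% of all tested genes. Among the 4 was Smad1 at -0.23 (edgeR adjusted p = 0.0139), and Smad3 was at -0.12 and not called.

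Of 10 tested inhibitors, 5 were higher and 1 lower, beside 31.1% and 27.8% of all tested genes. Bmper, a secreted BMP modulator of ECs, rose most, by 3.69 (standard error 0.53), from at most 12 reads in saline mice, and by 3.08 without saline mouse 1, which had 0 reads. Pmepa1, a TGF-β-induced inhibitor, rose by 1.02, and the nuclear co-repressor gene Skil fell by 0.26. The mean FPKM of Skil was 22.3 in both groups. Skil lost its call with the GC correction, at -0.11 (edgeR adjusted p = 0.258), and without saline mouse 1 or 3 or PD mouse 1 or 2 (edgeR adjusted p from 0.0670 to 0.117). Without saline mouse 1 or PD mouse 2, 3 of these genes were called higher, and with the GC correction 3 were. Under the endothelial scaling 1 was called higher, Bmper, and 6 lower, beside 8.73% and 71.0% of all tested genes. Among the 6 was Bambi at -0.45, from 0.48.

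Genes known as targets of TGF-β and SMAD3 were higher in 8 of 9 cases, with a median log2 fold change of 1.65. The changes of Col1a1 (3.85), Fn1 (3.28) and Col3a1 (2.70) were the largest, and collagens are also markers of the fibroblasts whose summed markers rose. Tgfbi was at 17.7, 18.2 and 17.9 CPM in saline mice and 75.9, 71.7 and 63.5 CPM in PD mice, a log2 fold change of 1.97 (standard error 0.09). Ccn2 (CTGF) rose by 1.65. Loxl2 was not called at 0.57 (edgeR adjusted p = 0.0591). Under the endothelial scaling 7 of these 9 genes were higher and 1 lower.

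All 7 genes listed as targets of BMP and ALK1 signals were higher, with a median log2 fold change of 1.20. Id1, a direct SMAD1 and SMAD5 target, was at 30.8, 37.1 and 31.3 CPM in saline mice and 98.5, 99.0 and 95.5 CPM in PD mice, a tight rise of 1.57 (SE 0.09, edgeR adjusted p = 8.29e-08). Atoh8 rose most, by 1.83, and Tmem100, which depends on ALK1 in ECs, by 1.20. Id2 and Id3 rose by 0.70 and 0.77. Under the endothelial scaling, Id1 and Atoh8 were called higher, Id2 was called lower at -0.23 (edgeR adjusted p = 0.0454), and the other 4 were not called.

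**Figure D5:**
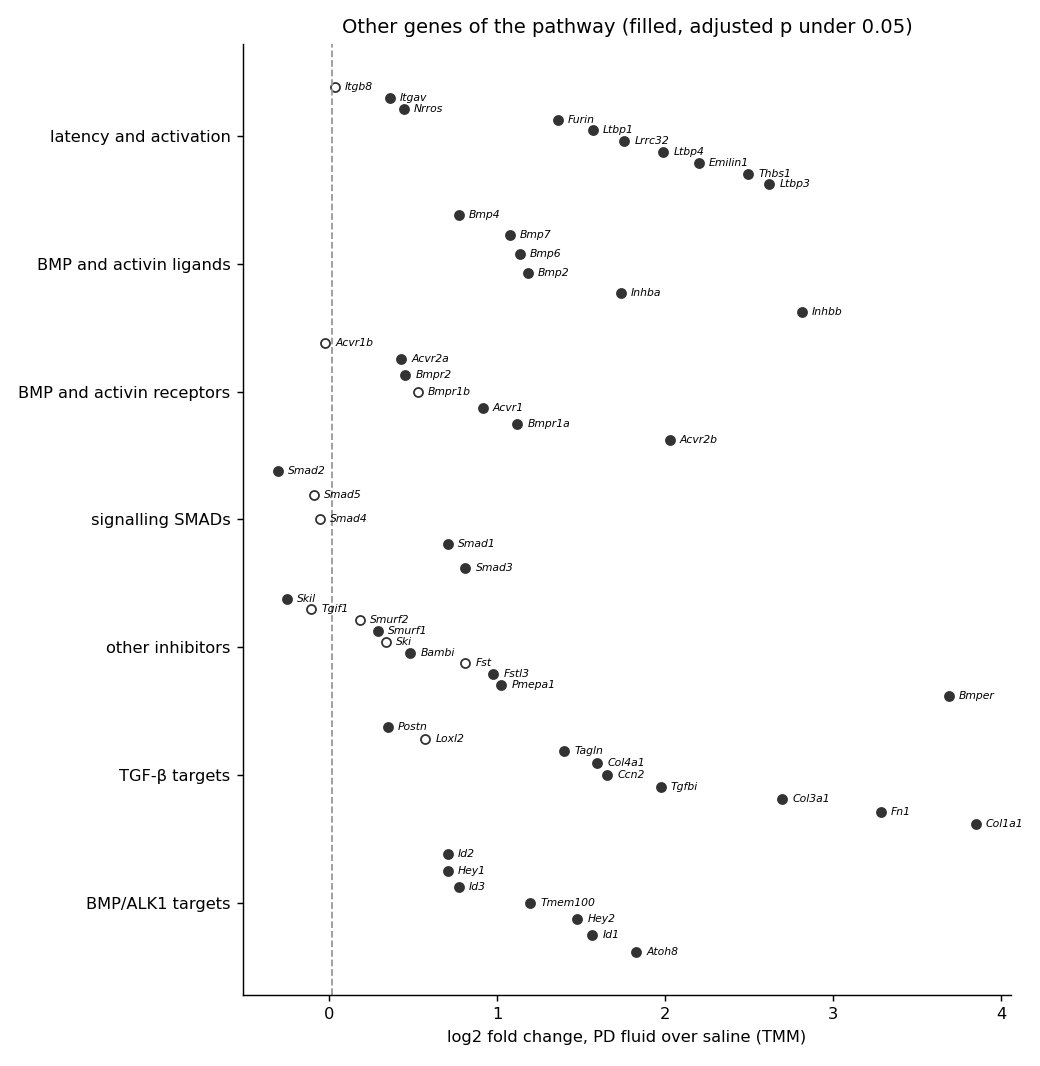
Log2 fold change in PD mice over saline mice of the tested genes of the 7 pathway lists under TMM scaling, each point a gene, filled where the adjusted p was under 0.05, with a dashed line at the median of all tested genes. Most points lie to the right of the line, and the signalling SMADs and inhibitors are the lists with called genes on its left, Smad2 and Skil.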

How the data were processed

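RNA was sequenced from mesenteric cells, labelled as peritoneal ECs, of 3 saline and 3 PD mice, 1 library per mouse, grouped by the sample labels. The deposited table held, per gene and library, whole read counts, FPKM computed by the authors (reads scaled to gene length and library size), and the authors' group means, log2 fold changes, p-values and FDR. These last columns hold the authors' own comparison and were not used. The submitters' processing notes name fastp 0.18.0, Bowtie2 2.2.8, HISAT2, StringTie and RSEM. The genome build, the annotation and the strand setting of the counting are not given in the sources used here.

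Counts were filtered with filterByExpr, scaled by TMM and tested with edgeR 4.0.16 (R 4.3.3) by the quasi-likelihood test, with Benjamini-Hochberg adjustment over all 14005 tested genes and a threshold of 0.05. The code was tested on simulated counts. CPM values are TMM-scaled. The deposited FPKM values were used for the order of levels and the ligand shares. Ratios of counts were compared by a two-sided exact permutation test. Alternatives were DESeq2 1.42.0, its size factors, limma-voom (limma 3.58.1), no filter, each library left out, a replicate block, and scaling to 12 endothelial markers. The GC correction (lowess, span 0.3), the Cdh5 reference and leaving out saline mouse 2 with PD mouse 3 were added after seeing the data.

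Gene positions and GC content of the longest transcript came from GENCODE M21 (GRCm38), which matched 22128 of 22183 gene identifiers. Upstream sequences came from RefSeq (GRCm38.p6). The 10 genes, the 7 pathway lists and the marker lists were chosen with earlier results of these data known. From the list of TGF-β targets, 1 gene is not reported here and enters no count of that list. All 10 genes are named, and from each list at least the called gene with the largest rise and that with the largest fall. Depth was 21973426 to 26374292 counted reads per library. The p-values measure the spread between libraries, each taken as 1 mouse. Summed acinar markers were at 9027 to 9745 CPM in PD mice and 2.23 to 5.44 CPM in saline mice. B cell markers were at 2358 to 2390 CPM in PD mice. Pairs of libraries within a group differed relative to counting noise by a chi-square per degree of freedom of 6.46 to 17.8. Whether cells of a group were pooled or prepared together was not tested.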

Additional observations from a re-analysis of the deposited data

How the results depend on the processing

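All 10 genes kept their direction and their side of the threshold with DESeq2, with its size factors in edgeR, with limma-voom and without the filter on low counts. When 1 library at a time was left out, 55 of 60 values did so, and the 5 losses were all of Tgfb1. The number of the 10 genes called higher then ran from 7 to 8. Over all tested genes it ran from 3852 to 4333, and that called lower from 3121 to 3685. For the list of other inhibitors the count called higher ran from 3 to 6. Leaving out saline mouse 2 and PD mouse 3 together cost Tgfb1 its call, at 0.48.

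The 12 endothelial markers rose in PD mice (median log2 fold change 0.96). Scaling to them therefore lowered the fold changes of all genes. The number of all genes called higher was 1223, and 1359 with the GC correction added, and that called lower was 9938 and 9764. Of the 10 genes, 5 and 2 were then higher and 4 and 3 lower. The log2 fold change turned negative for Tgfb1 (-0.29, and -0.26 with the GC correction), Tgfbr1 (-0.78 and -0.46), Tgfbr2 (-0.47 and -0.36) and Tgfbr3 (-0.21 and -0.075). The count called higher in edgeR's quasi-likelihood test was 1 and 1 for BMP and activin ligands, 0 and 1 for their receptors, 0 and 0 for signalling SMADs, 1 and 1 for other inhibitors, and 2 and 3 for BMP and ALK1 targets. With the GC correction alone, 1 of the 10 genes was lower and 3 other inhibitors were higher, and the cause was not tested.

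The labels number the mice 1 to 3 in each group. Same-numbered mice deviated from their group means with correlations of 0.156, 0.057 and -0.235 across genes. With 3 mice per group, these correlations cannot decide whether same-numbered mice were prepared together, and this was not tested. Saline mouse 2 correlated best with PD mouse 3 (0.31) and saline mouse 3 with PD mouse 1 (0.276). With the replicate block, 8 of the 10 genes were called higher, 4242 of all genes higher and 3667 lower, and each of the 10 genes kept its call.

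With 3 mice per group, the exact test of a ratio cannot reach a p under 0.1. Tgfb1 and Tgfb2 rested on fewer than 200 reads per library.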
